A study of Mus musculus with 17 samples.

Results

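Tmem176a and Tmem176b are neighbouring paralogs on mouse chromosome 6. They were chosen by name, because both were high with miR-125b and not with a hairpin against Arid3a in these libraries, and they are 2 of 46880 genes listed in all 3 deposited tables. RNA sequencing counts came from 17 libraries of mouse fetal liver cells taken at day E12.5 to 13.5, from animals on a B6J.129(Cg) background with a CAG-driven cas9 and EGFP allele at Gt(ROSA)26Sor, so cells of every group carry Cas9 and EGFP. Gata1s cells additionally carried sgGata1, a guide against Gata1, and a second transgene defined the group. LUC (n = 3) carried a luciferase transgene and Arid3a (n = 3) an Arid3a transgene, both with doxycycline at 1 μg/mL over 48 h. The control hairpin sh-ctrl (n = 3), the Arid3a hairpin shArid3a (n = 2, replicates 1 and 3) and miR-125b (n = 3) had the same dose over 10 days. WT cells (n = 3) carried sgLuc and shLuc and no doxycycline is listed for them. Nothing states that replicates are separate cultures or embryos, so p-values measure only the spread between these samples, which may be technical. In such bulk samples, fewer cells of a type and less RNA per cell cannot be told apart.

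Both genes encode multi-pass membrane proteins related to the MS4A (CD20-like) family. The proteins bind each other, sit largely in intracellular vesicles and have been described as parts of a cation channel, and Tmem176b is known from dendritic cells, where it takes part in antigen handling and immune tolerance. In the blood system the pair is otherwise known from macrophages and from innate lymphoid cells. miR-125b is a small RNA that lowers transcripts with a match to its seed, and Arid3a, a DNA-binding protein of megakaryocytes, is the target named in the study's title. GATA1s, the short form of GATA1, is the form found in the leukemia named there.

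The genes lie head to head, close enough to share a start region. On GRCm38, Tmem176b (ENSMUSG00000029810, protein coding) spans chromosome 6, 48833818 to 48841496, on the minus strand, and Tmem176a (ENSMUSG00000023367, protein coding) spans 48840919 to 48847071 on the plus strand. The gene models overlap by 578 bases through their rarer transcripts. Only 81 exon bases are shared, which is 2.13% of the 3810 exon bases of Tmem176a and 3.42% of the 2371 of Tmem176b, and the principal transcripts share 0. The use of strand in counting is not given in the sources used here, so reads in those shared bases could not be assigned to either gene.

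Since the pair was chosen on libraries with added miR-125b, the transcripts were searched for its seed. The mature mouse miRNA (RefSeq, GRCm38.p6) is shown first, with the seed at bases 2 to 8 in capitals. The only match to CTCAGGG, the complement of the seed, in any annotated transcript of either gene is shown next, with the match in capitals. The last line is the start region of the pair, plus strand, with its ETS-type motif in capitals.
mmu-miR-125b-5p: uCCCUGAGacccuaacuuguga
Tmem176a-203, chr6:48842964-48842986: ttaaggctCTCAGGGcttatcta
start region, chr6:48841425-48841454: cagctgcctgcCAGGAAGTgttgaggtctg

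No annotated 3′ UTR of Tmem176a (up to 724 bases) or Tmem176b (up to 235 bases) held CTCAGGGA, CTCAGGG or TCAGGGA, the forms of a seed match that were searched. Shorter forms were not searched. For comparison, 20.46% of 21027 genes with an annotated 3′ UTR held a 7-base match. The match in Tmem176a-203, at base 811 of a retained-intron transcript, overlaps an exon of 0 coding transcripts of the gene. TCAGGGA occurs once more outside the 3′ UTRs, in Tmem176b-203. The absence of these letters says nothing of other kinds of site. The principal transcripts that start closest to each other, Tmem176b-203 and Tmem176a-201, leave 137 bases between their starts (chromosome 6, 48841375 to 48841511). Most of these bases lie in the first exon of a minor transcript, Tmem176b-211, so only 30 are printed. The GC content of all 137 bases was 63.5%, with 0 CpG. On both strands, the stretch held 1 match to a full ETS-type motif (CAGGAAGT, GAGGAAGT, CCGGAAGT or CAGGAAGC), which 7.17% of 32851 RefSeq windows of the same length before a gene's start also hold. It held 0 matches to a GATA motif (AGATAA and its variant AGATAG, or the same with a first letter of T), which 14.62% of windows hold. The TATA box TATAAA (in 7.09% of windows) had 0 matches. The CCAAT box (CCAAT, in 23.14%) had 0 matches. The E-box CACGTG (in 4.03%) also had 0, and the AP-1 site TGACTCA (in 2.61%) likewise 0. GGAA, part of the ETS-type motif, had 4 matches and is in 77.88% of windows. These matches describe letters, not binding.

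Before the pair's values, the libraries themselves need a short account. Totals were 31339238 to 40859301 counts in the Gata1s libraries and 16362439 to 19212193 in WT, and levels below are CPM, read counts scaled to a common library size, with TMM scaling over all 17 libraries. On that scale 3 counts correspond to at most 0.107 CPM in the Gata1s libraries and 0.164 in WT, which covers counting error only. Arid3a was at 59.3 to 64.7 CPM in LUC and at 53.3, 69.2 and 74.5 in the libraries labelled Arid3a (log2 fold change 0.08, SE 0.12, edgeR quasi-likelihood adjusted p = 0.737), so no rise of the target beyond the spread was seen there, and replicate 1 lay below every LUC library. It was at 49.7 to 63.8 CPM in sh-ctrl, at 22.5 and 21.5 in shArid3a, and at 7.99 to 11.1 in miR-125b. LUC replicate 3 stood apart from the other LUC libraries in myeloid markers, with a summed granulocyte level of 163.6 CPM against 5.74 and 6.30. Results that rest on it are given with and without it.

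Tmem176a was lowest with the Arid3a hairpin and highest with miR-125b and in WT. Its level was 5.10, 4.79 and 4.16 CPM in the sh-ctrl libraries, 1.44 and 2.21 CPM in shArid3a, and 15.2, 29.7 and 34.8 CPM in miR-125b. These 3 groups did not overlap, which the choice of the pair favoured. The share of all genes whose groups separate in this way was not counted. Within its group, miR-125b replicate 1 was the lowest. The 48 h libraries lay above shArid3a and reached the lower end of sh-ctrl, at 2.34, 2.68 and 4.21 CPM in LUC and 4.21, 2.60 and 2.26 CPM in the libraries labelled Arid3a. WT cells had 24.4, 16.3 and 21.9 CPM. Group means ± SD were 26.6 ± 10.2 CPM in miR-125b, 20.9 ± 4.15 in WT, 4.69 ± 0.478 in sh-ctrl, 3.08 ± 0.997 in LUC, 3.02 ± 1.04 in the libraries labelled Arid3a (n = 3 each) and 1.82 ± 0.546 in shArid3a (n = 2). In this order, miR-125b and WT overlapped, as did sh-ctrl with LUC and LUC with the libraries labelled Arid3a, while WT lay apart from sh-ctrl, and the libraries labelled Arid3a from shArid3a. With library totals in place of TMM, WT (23.69 CPM) was above miR-125b (22.95), and the libraries labelled Arid3a (3.315) above LUC (3.287), so neither pair has a firm order.

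Tmem176b followed the same outline with a wider span. It was at 4.82, 6.36 and 4.74 CPM in sh-ctrl, at 1.497 and 2.28 CPM in shArid3a, and at 28.1, 42.1 and 58.5 CPM in miR-125b. Again these 3 groups did not overlap, with the same limit from the choice of the pair, and miR-125b replicate 1 was the lowest of its group. LUC had 1.496, 1.86 and 6.14 CPM, so its replicate 3 was above 2 of the 3 sh-ctrl libraries while the others were near shArid3a. The libraries labelled Arid3a had 4.15, 2.38 and 3.79 CPM, and WT had 55.5, 42.3 and 47.1 CPM. Group means ± SD were 48.3 ± 6.67 CPM in WT, 42.9 ± 15.2 in miR-125b, 5.31 ± 0.913 in sh-ctrl, 3.44 ± 0.936 in the libraries labelled Arid3a, 3.16 ± 2.59 in LUC (n = 3 each) and 1.89 ± 0.551 in shArid3a (n = 2). Neighbours in this order overlapped except miR-125b with sh-ctrl and sh-ctrl with the libraries labelled Arid3a. Both genes were read at useful depth, with 48 to 1244 counts per library for Tmem176a and 50 to 2090 for Tmem176b.

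**Figure D1:**
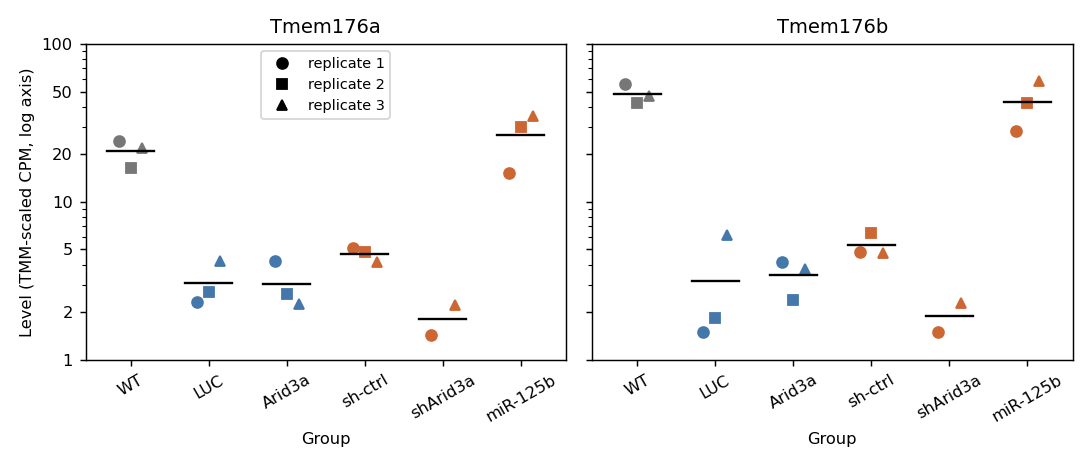
Level of Tmem176a (left) and Tmem176b (right) in every library, in TMM-scaled CPM on a log axis, by group. Symbols mark replicates 1, 2 and 3 and bars the group mean (n = 3, shArid3a n = 2). Both genes sit between 15.2 and 58.5 CPM in the WT and miR-125b libraries and at or below 6.36 CPM in all others.

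Levels of the genes can be compared with each other only per length. Per kilobase of all annotated exon bases, Tmem176b was the higher in 17 of 17 libraries, but with the mean length of the principal transcripts instead (1313 bases for Tmem176a and 1297.6 for Tmem176b) it was higher in 12, all WT and miR-125b libraries among them, and lower in LUC replicates 1 and 2, Arid3a replicates 1 and 2 and sh-ctrl replicate 1. On the exon scale its mean was 20.4 CPM per kb in WT against 5.48 for Tmem176a, 18.1 against 6.97 in miR-125b and 2.24 against 1.23 in sh-ctrl. WT and Gata1s groups were not tested against each other, because the genotype, the transgenes, doxycycline and the table change at once and cannot be told apart. With that limit, the mean of Tmem176a was 4.46-fold higher in WT than in sh-ctrl and that of Tmem176b 9.11-fold.

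The fold changes with miR-125b and with the hairpin describe the values that chose the pair and were not tested. With miR-125b against sh-ctrl, the log2 fold change was 2.49 (SE 0.32; 5.60-fold) for Tmem176a and 2.997 (SE 0.30; 7.98-fold) for Tmem176b. In this comparison 24.4% of 14004 genes were called by the edgeR quasi-likelihood test (1700 higher, 1714 lower), and the pair stood at places 117 and 63 from the top by fold change. With shArid3a against sh-ctrl, the log2 fold change was −1.39 (SE 0.37) for Tmem176a and −1.52 (SE 0.35) for Tmem176b, in a comparison that called 0.0857% of the same genes. Between miR-125b and shArid3a, both of which had less Arid3a than sh-ctrl, the pair differed by 3.87 (SE 0.41) and 4.52 (SE 0.39) on the log2 scale. These comparisons share libraries. Scaling by library totals alone moved the median log2 fold change of all genes with miR-125b from −0.03 to −0.22 and the split of calls to 890 higher and 2452 lower, and the pair then stood at 2.31 and 2.82.

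The contrast of the libraries labelled Arid3a and LUC played no part in choosing the pair, so it can be tested. Neither gene passed. Tmem176a had a log2 fold change of −0.02 (SE 0.35, adjusted p = 0.979) and Tmem176b of 0.13 (SE 0.55, adjusted p = 0.916) by edgeR's quasi-likelihood test with Benjamini-Hochberg adjustment. An interval of 2 SE ran from −0.72 to 0.67 for Tmem176a and from −0.98 to 1.23 for Tmem176b, so changes within these ranges were not excluded. The smallest change the test could detect was not computed. Of 13495 genes 0 (0%) were called by this test, 2885 had an unadjusted p under 0.05 and DESeq2 called 1342. Without LUC replicate 3 the log2 fold changes were 0.27 (adjusted p = 0.755) and 1.04 (adjusted p = 0.319) by the edgeR test. With the library labelled Arid3a replicate 1 left out, whose Arid3a level was the lowest, they were −0.34 (adjusted p = 0.480) and −0.03 (adjusted p = 0.977) by the same test.

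The ratio of the paralogs within a library needs no scaling between libraries. Tmem176b counts were 2.27, 2.59 and 2.15 times those of Tmem176a in WT, 1.85, 1.42 and 1.68 times in miR-125b and 0.945, 1.33 and 1.14 times in sh-ctrl. These 3 groups did not overlap, with WT highest. The values of miR-125b and sh-ctrl are those that chose the pair, and the share of other gene pairs whose ratios separate in this way was not counted. The ratio was 1.04 and 1.03 in shArid3a, inside the sh-ctrl range. LUC had 0.640, 0.691 and 1.46, and the libraries labelled Arid3a had 0.988, 0.916 and 1.68. In each of these groups replicate 3 was high and lay inside the miR-125b range. The log2 ratio differed by 0.41 between the libraries labelled Arid3a and LUC, with p = 0.5 in a two-sided exact permutation test whose smallest possible p is 0.1. Without LUC replicate 3 it was 0.79 (exact permutation p = 0.2, the smallest 2 against 3 can give), without Arid3a replicate 3 it was 0.14, and without LUC replicates 1 and 2 in turn 0.20 and 0.25. Ratios in the other table were not tested, because the fold changes of both genes there had chosen them.

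**Figure D2:**
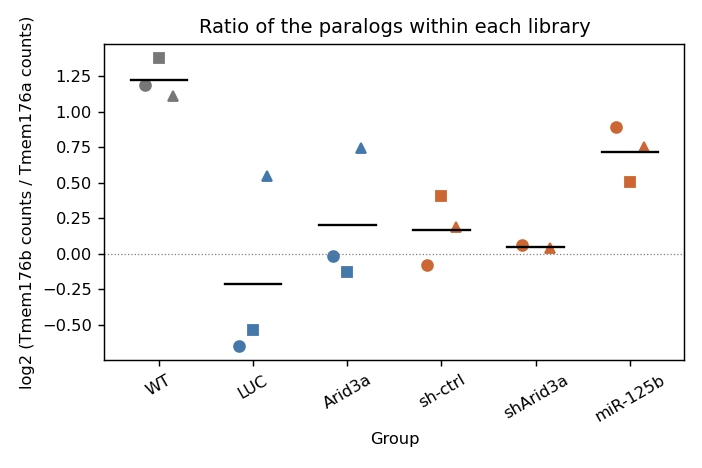
The log2 ratio of Tmem176b to Tmem176a counts within each library, by group, with bars at the group mean (n = 3, shArid3a n = 2). Circles, squares and triangles are replicates 1, 2 and 3. WT and miR-125b lie above 0 in every library, while LUC spans −0.64 to 0.54.

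Within groups the paralogs varied together. After the group mean was taken from each library's log2 CPM, which removes the differences that chose the pair, Pearson's r between the genes was 0.764 over 17 libraries (two-sided exact permutation within groups, p = 0.00367, Benjamini-Hochberg adjusted over both coefficients 0.00733). Spearman's rho was 0.799 (exact permutation p = 0.00797, adjusted 0.00797). The relation stayed without the 3 miR-125b libraries, at r = 0.738 (exact permutation p = 0.0201), and without the 2 libraries farthest from the median of Tmem176a, at r = 0.778 (exact permutation p = 0.0231). LUC replicate 3 deviated most in Tmem176b, and without it r was 0.779 (exact permutation p = 0.0293). Replicate numbers may pair sh-ctrl, shArid3a and miR-125b. With numbers permuted jointly over sh-ctrl and miR-125b, and shArid3a left out, r was 0.751 over 15 libraries (exact permutation p = 0.00772). Both genes of a library share its depth and scaling factor, which could add to r. With library totals in place of TMM r was 0.774 (exact permutation p = 0.00354). Totals are shared by both genes too, so this cannot tell such an effect apart. The r of other gene pairs within groups is not given here, so whether the paralogs vary together more than other genes was not tested. Reads in the shared exon bases could add to r, which was not tested.

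**Figure D3:**
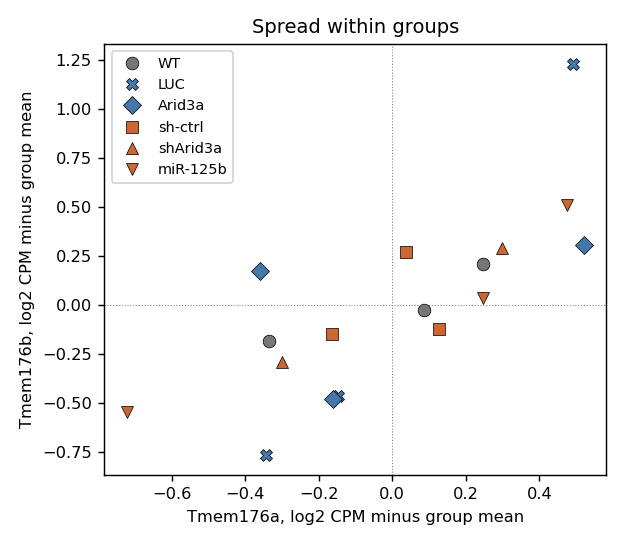
Deviation of each library from its group mean, in log2 CPM, for Tmem176a (horizontal) and Tmem176b (vertical). Each point is 1 of 17 libraries, with shapes for the groups. Most points lie along the diagonal (r = 0.764), and the highest Tmem176b value is LUC replicate 3.

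By edgeR, no tested gene around the pair was called with miR-125b or shArid3a, where 24.4% and 0.0857% of all genes were. Of 37 other genes with a start within 250 kb, 12 passed the filter on low counts, and 0 of 12 were called by edgeR in either comparison, with an unadjusted p under 0.05 for 1 with miR-125b and 2 with shArid3a. Over all 14004 genes tested, 5570 and 3616 had an unadjusted p under 0.05, and DESeq2 called 4367 and 1600. The median log2 fold change of the 12 neighbours with miR-125b was 0.08, against −0.03 for all genes. Of the 12 tested, 6 are Gimap genes, which encode GTPases of lymphocyte survival. Gimap9 was at 50.1 ± 5.54 CPM in sh-ctrl and 46.6 ± 1.57 in miR-125b (SD, n = 3 each; log2 fold change −0.12, SE 0.14). Gimap1 was at 26.0 ± 11.9 and 34.9 ± 8.05 CPM (SD, n = 3 each; 0.41, SE 0.29). Of the 6 Gimap genes tested, 0 were called in any of the 3 comparisons by edgeR or DESeq2, and 1, Gimap9 with shArid3a, had an unadjusted p under 0.05. Repin1, a zinc-finger gene, had −0.48 (SE 0.23, adjusted p = 0.143). Malsu1, a mitochondrial ribosome assembly factor, had the lowest adjusted p of these neighbours, with 0.58 (SE 0.20, adjusted p = 0.0551), and it was called with replicate numbers as a block (0.60, adjusted p = 0.0377, edgeR) and by DESeq2 (adjusted p = 0.0243), which called no other neighbour in these 3 comparisons. Gpnmb, a glycoprotein of macrophages and melanocytes, was at 116 to 154 CPM in WT, at most 10.8 in LUC and the libraries labelled Arid3a, and at most 0.128 in the other groups. Against LUC, 14 neighbours were tested and 0 called, with an unadjusted p under 0.05 for 2. Once replicate 1 of the Arid3a label was left out, 3 were called. Over all genes, edgeR called 0 of 13495 in the main fit and 3198 without that library, so the 3 calls are not particular to these neighbours.

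**Figure D4:**
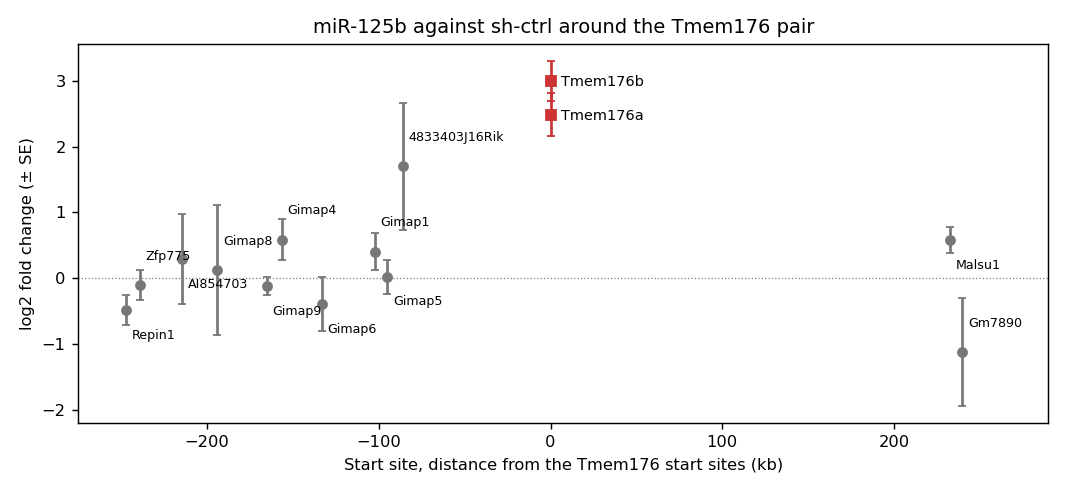
Log2 fold change (± SE) with miR-125b against sh-ctrl for the 12 tested genes within 250 kb and for the pair (squares), plotted by the distance of each start site from those of the pair. The pair is at 2.49 and 2.997, while the 6 Gimap genes tested lie between -0.39 and 0.59; 4833403J16Rik (1.70) was not called.

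Relatives in family or function were followed with miR-125b against sh-ctrl, where, as given above, 24.4% of all genes were called. Of these 14004 genes, 5570 had an unadjusted p under 0.05, DESeq2 called 4367, and edgeR with replicate numbers as a block called 3687. The filter on low counts included the miR-125b libraries. Here and in the marker lists below, genes near 0 in sh-ctrl could therefore pass through that group. The MS4A family has 18 listed members, of which only Ms4a2, a chain of the mast cell IgE receptor that the mast cell list also holds, and Ms4a3, a gene of granulocyte progenitors, passed the filter in that table, and 0 of 2 were called by edgeR or DESeq2. Ms4a3 was at 0.321 ± 0.557 CPM in sh-ctrl and 3.07 ± 2.32 in miR-125b (SD, n = 3 each), with 3.23 (SE 1.24, edgeR adjusted p = 0.0802), and was called with the replicate block (3.95, adjusted p = 0.0181). Summed over the family, WT had 337 to 398 CPM and every Gata1s library at most 4.28% of the WT mean. Of 10 tested genes of the MHC class II pathway, to which Tmem176b has been linked in dendritic cells, 3 were higher and 1 lower, with a median of 0.71 against −0.03 for all genes. H2-DMa, a peptide loading chaperone, went from 14.1 ± 1.55 to 25.5 ± 2.06 CPM (SD, n = 3 each; 0.83, SE 0.19, edgeR adjusted p = 0.0153). Ifi30, a lysosomal thiol reductase, went from 38.2 ± 5.65 to 88.5 ± 41.5 CPM (SD, n = 3 each; 1.19, SE 0.27, edgeR adjusted p = 0.0153). H2-DMb2 rose by 1.95 (SE 0.49, edgeR adjusted p = 0.0201). Ciita, the transactivator of the class II genes, fell by 3.50 from a low level (edgeR adjusted p = 0.0249), and Cd74, the invariant chain, was at most 0.178 CPM in miR-125b. In shArid3a, where the pair was lower, H2-DMa, Ifi30 and H2-DMb2 also had values above sh-ctrl, with 0 called by edgeR: H2-DMa had 0.78 (SE 0.21, adjusted p = 0.101), Ifi30 0.95 (SE 0.30, adjusted p = 0.112) and H2-DMb2 1.67 (SE 0.52, adjusted p = 0.112), all with an unadjusted p under 0.05, and DESeq2 called all 3. Summed over the 13 listed genes, sh-ctrl had 66.0 to 72.1 CPM, shArid3a 103.0 to 134.6 and miR-125b 106.4 to 178.9. Without sh-ctrl replicate 3, edgeR calls with miR-125b over all genes fell from 3414 to 734, and 0 of these 10 genes were called. The adjusted p of the 4 called genes ranged up to 0.0822 (edgeR) over the alternatives.

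Markers of myeloid cells were followed in the same comparison, where edgeR called 24.4% of all 14004 genes, and 3687 genes with the replicate block. Some monocyte and granulocyte markers rose with miR-125b, at levels far under those of WT, and edgeR called no dendritic cell marker. Of 9 tested monocyte and macrophage markers 3 rose and 0 fell, with a median of 0.89. They were Lyz2, lysozyme of myeloid cells (1.39, SE 0.35, edgeR adjusted p = 0.0204), Cd14, a co-receptor for bacterial lipopolysaccharide (4.75, adjusted p = 0.0108), and Cx3cr1, a chemokine receptor (2.83, adjusted p = 0.0256). With the replicate block 4 rose, Adgre1, the F4/80 antigen of macrophages, being added (2.85, adjusted p = 0.0382), and DESeq2 called it too (adjusted p = 0.0418). Fcgr1, an IgG receptor and after Lyz2 the most abundant of them, had 0.32 (SE 0.57, adjusted p = 0.715). The 19 markers summed to 12.0 to 26.0 CPM in sh-ctrl, 8.61 to 11.8 in shArid3a, 25.7 to 35.9 in miR-125b and 6587 to 7894 in WT. C1qa, C1qb, C1qc, Marco, Cd163 and Vsig4 were at 0 in all miR-125b libraries. Of 5 tested granulocyte markers 2 rose, with a median of 2.87. The filter on low counts included the miR-125b libraries, so markers near 0 in sh-ctrl could pass through that group. With only sh-ctrl and shArid3a, 2 of the 14 granulocyte and 6 of the 19 monocyte markers passed. Counts and medians of the tested markers can therefore be tilted towards a rise. Mpo, the myeloperoxidase of primary granules, went from 0.218 ± 0.350 to 46.5 ± 20.7 CPM (SD, n = 3 each; 7.73, SE 0.84, edgeR adjusted p = 0.00162), and Elane, neutrophil elastase, rose by 2.87 (edgeR adjusted p = 0.0248). With the replicate block 4 of 5 rose, Ctsg (adjusted p = 0.0417) and Ngp (0.0497) being added. The 14 markers summed to 51.3 to 108.6 CPM in sh-ctrl, 36.7 to 73.0 in shArid3a, 88.6 to 165.3 in miR-125b and 13086 to 18480 in WT. Prtn3, proteinase 3, made up 97.3% of the mean sum in sh-ctrl and 56.2% in miR-125b and was not called, at 76.6 ± 27.2 and 70.6 ± 39.0 CPM (SD, n = 3 each; −0.13, SE 0.38, edgeR adjusted p = 0.827). Mpo made up 0.277 and 37.0% of the sum, and Gfi1 and Fcnb were at 0 in all miR-125b libraries. Without sh-ctrl replicate 3, edgeR calls over all genes fell from 3414 to 734, and 0 monocyte markers and 1 granulocyte marker were called. Of 5 tested dendritic cell markers edgeR called 0, with an unadjusted p under 0.05 for 2, and DESeq2 called 1, Zbtb46, as lower (adjusted p = 0.0361). Their median was −0.32. Tcf4, a factor of plasmacytoid dendritic cells that other cells express too, made up 93.2% of the mean dendritic sum in sh-ctrl and 90.9% in miR-125b (−0.32, SE 0.20, edgeR adjusted p = 0.264), and Itgax, the next, had 1.48 (SE 0.88, adjusted p = 0.232), while Flt3, a receptor of their progenitors, was at most 0.0357 CPM in miR-125b against 35.6 to 48.0 in WT.

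The same levels can be set against WT. In miR-125b libraries Tmem176a stood at 72.6 to 167% of its WT mean and Tmem176b at 58.2 to 121%, while the monocyte and macrophage sum stood at 0.362 to 0.506% and the granulocyte sum at 0.582 to 1.09% of theirs. Other sums lay closer to WT: the MHC class II genes stood at 30.9 to 51.9% with miR-125b (19.2 to 20.9% in sh-ctrl), the mast cell genes at 13.97 to 38.3% (9.81 to 24.3% in sh-ctrl) and the dendritic cell genes at 8.87 to 10.4% (8.58 to 14.5% in sh-ctrl). These sums rested on other genes than in WT. Ifi30 made up 67.0% of the mean class II sum with miR-125b and 6.23% in WT, at 88.5 and 21.5 CPM. Gata2 made up 55.5 and 13.6% of the mast cell sum, and Tcf4 90.9 and 25.1% of the dendritic sum. In LUC replicate 3, with 1.07% of the WT granulocyte sum and 0.918% of the monocyte sum, Tmem176b stood at 12.7%, against 3.10 and 3.84% in the other LUC libraries. The part of such cells in the pair's level was not tested.

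**Figure D5:**
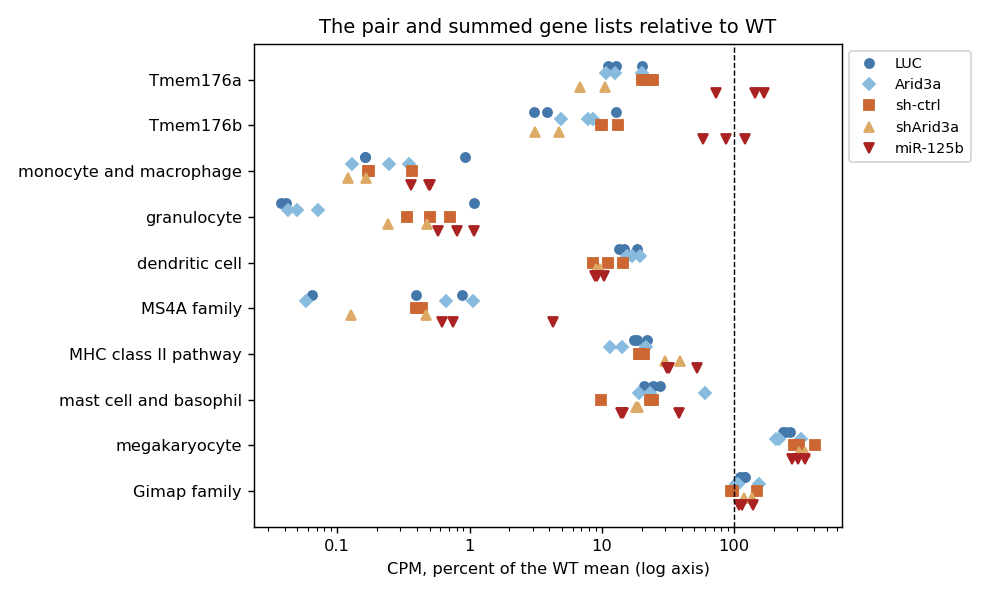
Level of the pair and of summed gene lists in each Gata1s library, as percent of the WT mean of the same item, on a log axis. Each point is a library, and the dashed line marks WT; 1 sh-ctrl library at 0 for the MS4A family is not drawn. With miR-125b the pair lies between 58.2 and 167%, the summed MHC class II, mast cell and dendritic cell genes between 8.87 and 51.9%, and the summed monocyte and granulocyte markers at or below 1.09%.

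Other cell types were followed through their markers with miR-125b against sh-ctrl. Over all genes, edgeR called 24.4% of 14004 there (1700 higher, 1714 lower), and 3687 genes with the replicate block. The counts below are to be read beside that share. Of 12 tested mast cell and basophil genes 2 rose, the proteases Mcpt8 (7.51, edgeR adjusted p = 0.0141) and Prss34 (7.07, adjusted p = 0.0125), and miR-125b libraries spread from 0.978 to 49.0 CPM for Mcpt8. Gata2, a factor of mast cells and of progenitors, led that list at 272 ± 91.3 CPM in sh-ctrl and 226 ± 17.7 in miR-125b (SD, n = 3 each; −0.28, SE 0.23, edgeR adjusted p = 0.395), followed by Cpa3 (1.32, SE 0.88, adjusted p = 0.290). Of 14 listed hepatoblast genes only 2 passed the filter. Both rose, Afp (2.50, edgeR adjusted p = 0.0141) and Apoa2 (2.12, edgeR adjusted p = 0.0214), the former reaching 5.12 CPM at most. Of the 14, 9 were at 0 in all miR-125b libraries, among them Alb, Ttr and Hnf4a, and 5 were at 0 in all WT libraries. Of 15 megakaryocyte genes 1 rose and 6 fell, among them Gp1bb (0.76, adjusted p = 0.0115), Gp1ba (−1.65, adjusted p = 0.00465) and Vwf (−1.70, adjusted p = 0.0171), all parts or partners of the platelet receptor for von Willebrand factor. Pf4, platelet factor 4, was the most abundant with miR-125b (0.26, SE 0.29, edgeR adjusted p = 0.538), and Itga2b, the integrin CD41, fell by 0.69 (adjusted p = 0.0329). Of 9 erythroid genes 3 fell, including the globin gene Hbb-bs (−2.21, adjusted p = 0.0103), while Hba-a1 had −0.75 (adjusted p = 0.116), and with the replicate block 6 fell and 1 rose. Of 4 stromal and endothelial genes 0 were called by edgeR or DESeq2, 1, Pdgfrb (0.48, edgeR adjusted p = 0.0920), had an unadjusted p under 0.05, and Col1a2 was called with the block (2.98, adjusted p = 0.00174). Without sh-ctrl replicate 3, edgeR calls over all genes fell from 3414 to 734. In that fit 1 megakaryocyte and 1 erythroid gene fell and 0 mast cell, hepatoblast or stromal genes were called. In shArid3a and in the libraries labelled Arid3a, edgeR called 0 genes of any marker, MS4A or MHC list: of 76 and 58 tested, 14 and 9 had an unadjusted p under 0.05, and DESeq2 called 9 and 5. Over all genes, 3616 of 14004 and 2885 of 13495 had an unadjusted p under 0.05, and DESeq2 called 1600 and 1342.

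Some other genes had a profile like that of the pair over the 17 libraries. Likeness was Pearson's r with the mean log2 CPM of both members among 9530 genes, a description with no test, since groups and scaling are shared by all points; the median was −0.10 and the central 90% ran from −0.67 to 0.64. The members themselves had r = 0.979 with each other. The highest were Serpinb1a (0.948), an inhibitor of neutrophil proteases, Actn1 (0.947), an actin crosslinker, Cbx6 (0.939), a Polycomb protein, Gaa (0.920), the lysosomal enzyme that degrades glycogen, and Mov10 (0.914), an RNA helicase. Serpinb1a was at 302 to 398 CPM in WT, 316 to 484 in miR-125b and 11.7 to 33.9 in all other libraries, so its groups split as those of the pair do. Actn1 was at 17.5, 49.9 and 61.1 CPM in miR-125b, where, as for the pair, replicate 1 was lowest, and Serpinb1a was highest in that replicate. The lowest r values were those of Dhcr7 (−0.921), the last enzyme of cholesterol synthesis, Actl6a (−0.914), a BAF chromatin complex subunit, and Cln6 (−0.900), a membrane protein of the endoplasmic reticulum. Dhcr7 was at 56.1 to 67.0 CPM in WT and 56.9 to 77.3 in miR-125b, below its range of 112 to 176 elsewhere. Of the 5 most alike genes, 2 were also among the top 5 by Spearman's rho and 0 among the top 5 within the miR-125b table alone.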

How the data were processed

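RNA came from Quick-RNA Miniprep columns (Zymo Research), per the labels. The submitters' processing notes name fastp, HISAT2 2.0.5 and featureCounts with mm10; strand use and treatment of multi-mapped reads are not given in the sources used here. The authors deposited raw read counts per gene, which were whole numbers in every library; 0 per-sample columns went unmapped. Tables were joined by Ensembl identifier; shArid3a replicate 2 is not analysed here. Counts were fitted per table with edgeR 4.0.16 (R 4.3.3; TMM, filterByExpr, glmQLFit, glmQLFTest, Benjamini-Hochberg threshold 0.05); sh-ctrl, shArid3a and miR-125b were fitted together. DESeq2 1.42.0 was an alternative. Standard errors were derived from the F statistics. Log2 CPM used a prior count of 2. The fits were tested on simulated data. Same-numbered libraries of the table with miR-125b deviated together (correlations 0.151 to 0.431 over genes). Most differently numbered pairs had negative values. Some were positive, with 0.205 for sh-ctrl replicate 3 and miR-125b replicate 2. The correlation of sh-ctrl replicate 2 with shArid3a replicate 3 was 0.364. As shArid3a has only 2 libraries, that value mirrors the −0.364 with shArid3a replicate 1. A pairing by replicate number is therefore possible there but not established, and the block is an alternative.

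The members and gene lists were chosen with earlier results of these data known. Named genes: Arid3a and Gata1 as checks; per list up to 3 called genes with the smallest adjusted p and the 2 with the highest level in the table with miR-125b; neighbours of at least 1 CPM; the 5 most and 3 least alike genes with a mean of at least 5 CPM. Genes at 0 or low in miR-125b, and those called with the block, were named after their values were seen. Gata1 had log2 fold changes of −0.23, −0.22 and −0.47 in the libraries labelled Arid3a, shArid3a and miR-125b, with 0 calls. Alternatives covered scaling, filter, tool, replicate block, ribosomal RNA-like genes, groups fitted and each library left out. Exon models and positions are from GENCODE M21, and start-site windows and miRNAs from RefSeq. The type 3 lymphoid and T cell list and some single marker genes are not reported here.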

Additional observations from a re-analysis of the deposited data

How the results depend on the processing

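The members' log2 fold changes in the 3 comparisons with miR-125b or shArid3a kept their direction in every alternative run, and with miR-125b ranged from 2.23 to 2.77 for Tmem176a and from 2.70 to 3.23 for Tmem176b over libraries left out. In the libraries labelled Arid3a against LUC neither member was called under any alternative, but the sign was not stable. Tmem176a was at 0.0141 with library totals and ran from −0.34 to 0.27 over libraries left out, including 0.27, 0.08 and 0.15, and Tmem176b ran from −0.21 to 1.04, including −0.21, −0.15 and −0.03. The cause was not tested.

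Replicate numbers were also fitted as a block, which treats same-numbered libraries in the table with miR-125b as pairs. Tmem176a was then at 2.40 and Tmem176b at 2.95 with miR-125b, and at −1.38 and −1.48 with shArid3a. In these fits 3687 and 15 genes were called. With these pairs permuted jointly, r between the members was 0.751 (exact permutation p = 0.00772). Same-numbered LUC and Arid3a libraries had correlations of 0.158, 0.365 and 0.0084. With the block the members were at −0.03 and 0.36 there, with 0 genes called.

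Counts over all genes moved more. For the libraries labelled Arid3a against LUC, DESeq2 called 1342 genes, no filter 71, and leaving out libraries gave 0 to 3198, the latter without Arid3a replicate 1. With miR-125b, leaving out libraries gave 734 (without sh-ctrl replicate 3) to 2872, with 1766, 2229 and 2032 without miR-125b replicates 1, 2 and 3. With shArid3a, library totals gave 20, DESeq2 1600, no filter 1237 and leaving out ribosomal RNA-like genes 0, and leaving out libraries gave 2 to 11, with 5 or fewer without sh-ctrl replicate 2 or 3 or either shArid3a library. A lone shArid3a library was assumed to vary like the other groups. The log2 ratio of the members between the libraries labelled Arid3a and LUC ran from 0.14 to 0.79 over libraries left out. At 48 to 68 counts in shArid3a, counting error is larger there than with miR-125b.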
